A study of Mus musculus with 5 samples.

Results

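Dlx1, Dlx2, Dlx5 and Dlx6 encode homeodomain transcription factors of the forebrain, and Dlx1as and Dlx6os1 are long noncoding RNAs (lncRNAs) transcribed from the opposite strand of Dlx1 and Dlx6. All rows of the deposited expression table that carry 1 of these 6 symbols were taken, which gave 11 of 37142 transcripts, and the transcripts of a symbol were summed to 6 of 27671 genes and lncRNA loci. The libraries came from poly(A) RNA of wild type C57BL/6 males, all adult, with each region dissected and frozen at once: 2 samples of the subventricular zone (SVZ, the stem cell niche along the lateral ventricle), and 1 each of the olfactory bulb (OB), the dentate gyrus (DG, the niche of the hippocampus) and the striatum (STR, the control region without neurogenesis). The sources used here do not give the number of animals behind a sample. SVZ values stand in the order of sample 1 and sample 2. Levels are FPKM as deposited, that is fragments mapped per kilobase of a transcript, relative to all mapped fragments of its library, and their sequencing depth is unknown. Differences are on the log2(FPKM + 1) scale, which understates those of low genes, and their errors are limma standard errors (SE) that rest on the 2 SVZ samples.

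The Dlx genes lie in convergent pairs, Dlx1 beside Dlx2 and Dlx5 beside Dlx6, with enhancers between the genes of a pair. In the developing ventral forebrain of mice they act after the homeobox factor Gsx2 and are needed for the birth and migration of GABAergic interneurons. In the adult, Dlx2 marks dividing progenitors and migrating neuroblasts of the SVZ, whose progeny become interneurons of the bulb. A form of Dlx6os1 called Evf2 is transcribed across the enhancers between Dlx5 and Dlx6, and in mouse embryos it brings Dlx proteins to them. The Dlx6os1 level given below sums forms with different starts, so it is not the level of Evf2 alone.

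The 4 proteins share the homeobox, and the stretch that codes for its DNA-contacting helix is shown because reads of such relatives could be confused. Each line gives 60 bases of the coding sequence (GENCODE M21, GRCm38, 5′ to 3′), with the codons of the conserved tryptophan, phenylalanine, glutamine and asparagine of this helix in capitals.
Dlx1: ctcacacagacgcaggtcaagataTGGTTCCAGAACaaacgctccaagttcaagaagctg
Dlx2: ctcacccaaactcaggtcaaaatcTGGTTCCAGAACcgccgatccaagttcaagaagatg
Dlx5: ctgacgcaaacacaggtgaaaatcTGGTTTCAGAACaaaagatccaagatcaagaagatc
Dlx6: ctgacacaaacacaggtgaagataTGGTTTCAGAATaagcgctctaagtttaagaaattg
Within these 60 bases the pairs of genes differed at 10 to 16 positions, the fewest between Dlx1 and Dlx2 and the most between Dlx2 and Dlx6. Over the 180 bases of the homeobox the identity was 71.1% to 76.7%. The longest run of identical bases between any 2 of the 4 transcripts was 23, between Dlx2 and Dlx6.

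Dlx6os1 has 3 catalogue transcripts, of 4503, 4247 and 524 bases, and they are told apart by the splice junction. On mm9 each has 2 exons on the minus strand of chromosome 6, and all 3 begin their second exon at position 6774567. The first exon of the 4503-base form spans 124 bases (6811525 to 6811648), that of the 4247-base form 225 bases (6819309 to 6819533) and that of the 524-base form 144 bases (6780648 to 6780791). The lines below give 25 bases before and, in capitals, 15 bases after the splice junction, from GENCODE M21 transcripts on GRCm38 with an intron of the same length (36957, 44741 and 6080 bases).
4503-base form: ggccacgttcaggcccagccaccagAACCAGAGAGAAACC
4247-base form: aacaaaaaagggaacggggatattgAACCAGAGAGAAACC
524-base form: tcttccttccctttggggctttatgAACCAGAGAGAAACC
The 524-base form has the exon and intron lengths of its GENCODE transcript throughout. The 2 long forms share 4022 exonic bases, and each shares 380 with the short form, so most of their reads carry no junction that tells them apart.

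RefSeq promoter windows, 250 bases before to 50 after a transcription start, were listed for 3 of the 6 members: Dlx1, Dlx2 and, with 2 starts, Dlx6os1. The windows of Dlx2 and Dlx6os1 are printed (GRCm38.p6, 5′ to 3′ on the minus strand) with the homeodomain core motifs TAATTA and TAATTG, searched on both strands, in capitals.
Dlx2, chr2:71546705-71547004: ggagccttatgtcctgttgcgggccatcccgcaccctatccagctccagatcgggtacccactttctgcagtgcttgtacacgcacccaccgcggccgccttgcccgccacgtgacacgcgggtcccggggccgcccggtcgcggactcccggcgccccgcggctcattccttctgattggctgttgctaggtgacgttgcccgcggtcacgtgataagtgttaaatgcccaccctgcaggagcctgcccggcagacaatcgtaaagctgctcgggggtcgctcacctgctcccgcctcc
Dlx6os1, chr6:6869484-6869783: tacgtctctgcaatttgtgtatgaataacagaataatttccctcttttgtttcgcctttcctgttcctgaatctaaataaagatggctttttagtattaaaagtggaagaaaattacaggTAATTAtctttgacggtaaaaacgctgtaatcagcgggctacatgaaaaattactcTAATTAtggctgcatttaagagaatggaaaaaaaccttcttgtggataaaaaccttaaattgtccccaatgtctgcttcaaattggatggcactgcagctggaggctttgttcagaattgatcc
Dlx6os1, chr6:6861634-6861933: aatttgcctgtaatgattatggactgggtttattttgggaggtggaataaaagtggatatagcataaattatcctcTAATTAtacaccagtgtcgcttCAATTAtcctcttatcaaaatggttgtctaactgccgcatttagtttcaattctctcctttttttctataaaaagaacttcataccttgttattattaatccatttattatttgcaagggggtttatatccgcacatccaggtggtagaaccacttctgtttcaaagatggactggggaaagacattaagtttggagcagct
The window of Dlx2 held 66.3% G and C and that of Dlx1 69.3%, whereas the Dlx6os1 windows held 35.7% and 35.3%, against a median of 52.7% over all 32851 windows. Each Dlx6os1 window held 2 matches to the motifs, and those of Dlx1 and Dlx2 held 0. TAATTA was present in 5.29% of all windows, TAATTG in 8.0% and at least 1 of them in 12.4%. A match describes the letters of these windows and is no evidence of binding.

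The 2 SVZ samples differed in their short transcripts. RefSeq transcripts under 200 bases reached 1 FPKM 153 and 161 times in SVZ sample 2 and STR, against 14 to 24 times in SVZ sample 1, OB and DG, so these were treated as 2 library sets. The labels name no such sets. Values within a set are given beside those of all libraries, and for OB or DG minus STR, which cross the sets, the value is bridged by adding the within-set steps through the SVZ samples. The DG library listed 16725 transcripts at 0, and the others 9564 to 10807; with 1 DG sample, region and library cannot be told apart there. Markers of bulb neurons summed to 1678 FPKM in OB and 9.73 to 47.8 in the others. Those of granule neurons summed to 580 FPKM in DG and 11.03 to 127 in the others. Each gene of these lists was highest in the library of its label, except Tbr1 and Calb1. The bulb marker Tbr1 was at 8.06 FPKM in OB and 27.6 in DG. The granule neuron marker Calb1 was at 111 FPKM in DG and 124 in STR. Striatal projection neuron markers summed to 4761 and 3769 FPKM in SVZ, 331 in OB, 130.3 in DG and 3905 in STR, with 8 or 9 of the 9 at 1 FPKM or more in each library. The part of such cells in the Dlx values was not tested.

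Dlx1, a factor of interneuron differentiation and survival, had the highest level of the 6 members in OB and SVZ sample 1. It was at 54.9 and 40.0 FPKM in SVZ, 167 in OB, 6.58 in DG and 2.50 in STR. The OB level lay above that of 97.8% of coding genes in that library. Dlx1 was 3.77 ± 0.32 log2 units higher in SVZ than in STR, 5.59 ± 0.36 higher in OB and 1.12 ± 0.36 higher in DG. The corresponding values within a set or bridged were 3.55, 5.14 and 0.67.

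Dlx2, its partner on chromosome 2, was likewise highest in OB and higher in both SVZ samples than in DG and STR, at lower levels. It was at 33.3 and 9.36 FPKM in SVZ, 50.1 in OB, 1.37 in DG and 0.478 in STR. Its SVZ samples were the most unequal of the 6 members, 3.56-fold apart. Dlx2 was 3.67 ± 1.13 higher in SVZ and 5.11 ± 1.30 higher in OB than in STR, and 2.81 and 3.38 within the set or bridged. In DG minus STR the value was 0.68 ± 1.30, and it turned to -1.05 when bridged, so no direction is given for this pair.

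Dlx5, which acts with Dlx6 in the same lineage, spanned a narrower range. It was at 28.9 and 19.4 FPKM in SVZ, 52.9 in OB, 3.40 in DG and 10.8 in STR. OB was the highest library, and STR stood between the SVZ samples and DG. Dlx5 was 1.07 ± 0.38 higher in SVZ and 2.19 ± 0.44 higher in OB than in STR. Bridged, the OB value was 1.65, under a 4-fold difference. In DG minus STR it was -1.42 ± 0.44, and -1.97 when bridged.

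Dlx6, unlike the other coding members, had no higher level in the SVZ samples than in the striatum. It was at 20.2 and 20.9 FPKM in SVZ, 26.2 in OB, 0.583 in DG and 24.8 in STR. OB and STR were nearly equal, both SVZ samples were slightly lower, and DG alone was low. Dlx6 differed from STR by -0.26 ± 0.16 in SVZ and by 0.08 ± 0.18 in OB, where median ratio scaling of the libraries turned the sign (-0.48). In DG minus STR the difference was -4.03 ± 0.18, and the DG level was 0.0235 times that of STR.

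**Figure D1:**
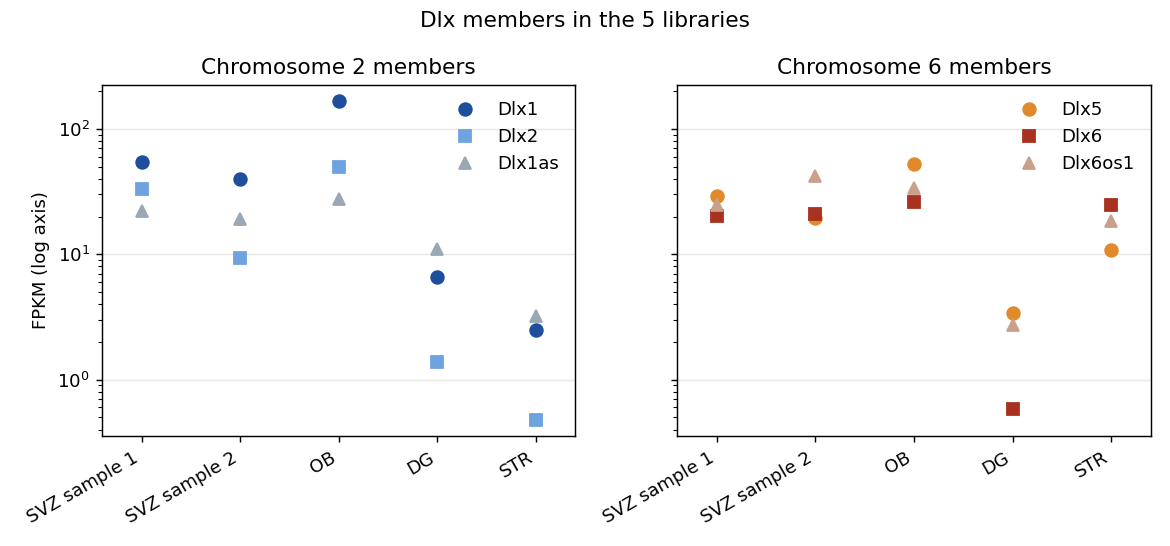
FPKM of the 6 members in each of the 5 libraries on a log axis, with the chromosome 2 members left and the chromosome 6 members right; each point is 1 library. Dlx1 and Dlx2 are low in DG and STR, while Dlx6 is at 0.583 FPKM in DG and at 24.8 FPKM in STR.

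The 2 gene pairs thus stood in different proportion in the striatum. Dlx1 and Dlx2 summed to 88.2 and 49.3 FPKM in SVZ, 217 in OB, 7.95 in DG and 2.98 in STR. Dlx5 and Dlx6 summed to 49.1 and 40.3 FPKM in SVZ, 79.0 in OB, 3.98 in DG and 35.5 in STR. The ratio of the chromosome 2 pair to the chromosome 6 pair was 1.80 and 1.22 in the SVZ samples, 2.75 in OB and 2.00 in DG, against 0.0837 in STR. SVZ sample 2, of the same library set as STR, had 14.6-fold the STR ratio. Such ratios are formed within a library and do not depend on its scaling.

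Dlx6 made up 4.89% to 23.3% of the FPKM of the 4 coding genes in the SVZ, OB and DG libraries, against 64.3% in STR. Dlx1 made up 56.4% in OB, 55.1% in DG and 40.0% and 44.6% in the SVZ samples, against 6.48% in STR. The share of Dlx5 varied least, at 17.8% to 28.5%. DG and STR, the libraries with the least Dlx1 and Dlx2, differed in the place of Dlx6: it was the lowest of the 6 members in DG and the highest in STR. In bulk tissue fewer cells of a type and less RNA per cell cannot be told apart.

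**Figure D2:**
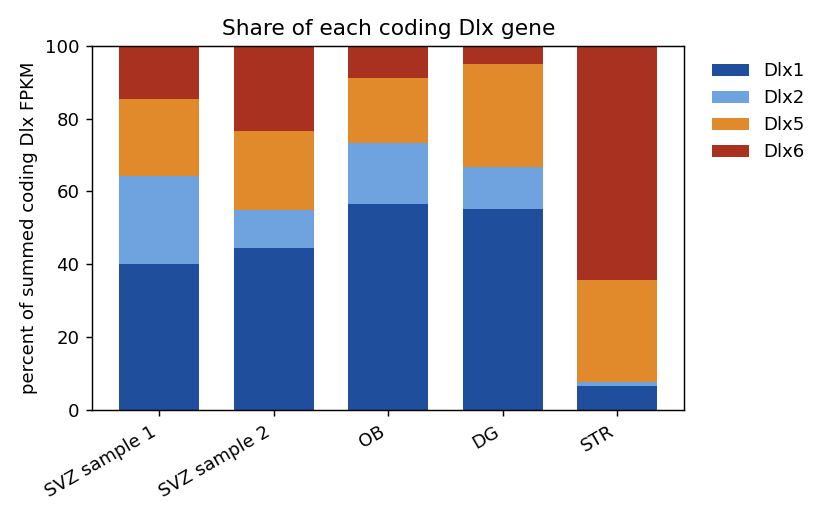
Percent of the summed FPKM of Dlx1, Dlx2, Dlx5 and Dlx6 that each gene contributes, 1 bar per library. Dlx1 and Dlx2 together are the larger part in the SVZ, OB and DG libraries, and Dlx6 takes 64.3% in STR.

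Counted by size, 3 of 6 members (Dlx1, Dlx2 and Dlx1as) were at least 2 log2 units, or 4-fold, higher in SVZ than in STR, where 1.37% of all 15530 features tested were, and the same number in SVZ sample 2 alone, where 0.941% were. In OB minus STR 4 of 6 were (Dlx5 in addition), against 6.12% of all features. In DG minus STR 0 were higher, against 3.70%, and 2 were lower (Dlx6 and Dlx6os1), against 3.72%. The bridged difference of Dlx6os1 (-1.62) was under that size. The median difference of the members was 1.72 in SVZ minus STR, 2.48 in OB minus STR and -0.37 in DG minus STR, and that of all features 0.21, 0.47 and 0.23.

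Between the niches, DG was the low region. In SVZ minus DG 5 of 6 members, all but Dlx1as, were at least 2 log2 units higher, against 3.20% of all features, and likewise 5 in SVZ sample 1 minus DG, where both are of 1 set (3.66%). The differences ran from 2.49 ± 0.38 for Dlx5 to 3.76 ± 0.16 for Dlx6. In OB minus DG the same count was 5, against 3.76%, with values from 3.23 ± 0.58 for Dlx6os1 to 4.47 ± 0.36 for Dlx1. Dlx1as gave 0.85 ± 0.21 in SVZ minus DG and 1.25 ± 0.24 in OB minus DG.

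Between OB and SVZ 0 of 6 members reached that size, against 3.33% of all features, and 0 in OB minus SVZ sample 1 (2.63%). Without SVZ sample 1 the count was 2, Dlx1 and Dlx2. Dlx1 gave 1.81 ± 0.32, Dlx2 1.44 ± 1.13, Dlx5 1.12 ± 0.38, Dlx6 0.34 ± 0.16, Dlx1as 0.41 ± 0.21 and Dlx6os1 0.07 ± 0.51. The Dlx2 value was 2.30 without SVZ sample 1 and 0.57 without SVZ sample 2; OB and SVZ sample 1 are of 1 library set. Dlx1, Dlx2, Dlx5, Dlx6 and Dlx1as were higher in OB than in either SVZ sample. Dlx6os1 lay between them.

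By limma's test with Benjamini-Hochberg adjustment no member and no other feature had an adjusted p under 0.05 in any of the 6 pairs of regions (0% of the features tested). Counts of unadjusted p-values are not given, since OB, DG and STR have 1 sample each. The smallest adjusted p of a member was 0.208, for Dlx6 in OB minus DG. With 1 residual degree of freedom, from the SVZ pair, the test assumes that OB, DG and STR vary as the SVZ does.

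**Figure D3:**
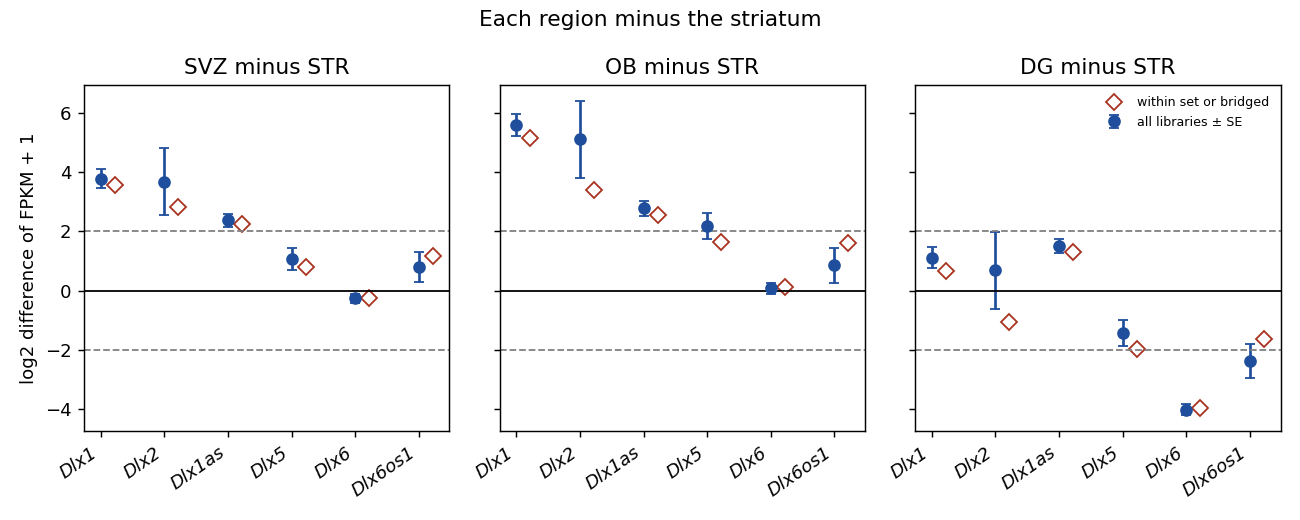
Log2 difference of FPKM + 1 between each region and STR for the 6 members. Filled points with bars are all libraries with the limma SE, open diamonds are values within a library set or bridged, and dashed lines mark 2 log2 units; Dlx6 lies near 0 in SVZ and OB and at -4.03 in DG.

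Dlx1as, the lncRNA opposite Dlx1, varied less between regions than its coding neighbour. It was at 22.3 and 19.0 FPKM in SVZ, 27.7 in OB, 11.01 in DG and 3.19 in STR. The SVZ samples and OB were high, DG intermediate and STR low. Dlx1as was 2.37 ± 0.21 higher in SVZ than in STR, 2.77 ± 0.24 higher in OB and 1.52 ± 0.24 higher in DG. Within the set or bridged these were 2.26, 2.55 and 1.30. The FPKM level of Dlx1as was 8.66-fold higher in OB than in STR, and that of Dlx1 67.0-fold.

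The FPKM ratio of Dlx1as to Dlx1 was 0.407 and 0.476 in the SVZ samples, 0.165 in OB, 1.67 in DG and 1.28 in STR. The lncRNA was the less abundant of the pair in both SVZ samples and OB and the more abundant in DG and STR. With RefSeq transcripts only, the log2 ratio, on FPKM + 1, was 0.16 in DG and -0.05 in STR, so that in STR its sign turned, against 0.66 and 0.26 with all transcripts. The ratio of Dlx6os1 to Dlx6 was 1.22 and 2.03 in the SVZ samples, 1.29 in OB, 4.65 in DG and 0.739 in STR. The DG ratio rests on a Dlx6 level of 0.583 FPKM. On FPKM + 1 the log2 ratio was 1.23 in DG, against 0.99 in SVZ sample 2. The ratio of Dlx6os1 to Dlx5 was 0.852 and 2.18 in the SVZ samples, 0.641 in OB, 0.798 in DG and 1.70 in STR.

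**Figure D4:**
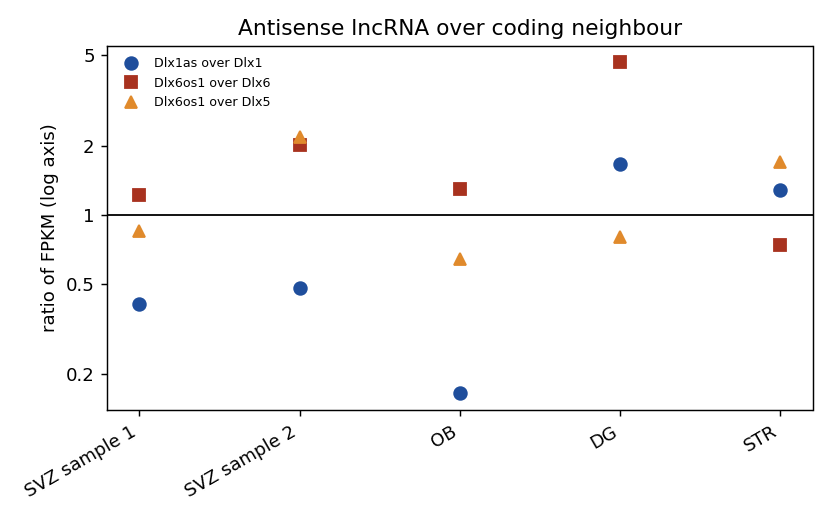
FPKM of an antisense lncRNA divided by that of a coding neighbour in each library, on a log axis; each point is 1 library and the line marks equal levels. Dlx1as over Dlx1 is under 1 in both SVZ samples and OB and above 1 in DG and, with all transcripts of the symbols, in STR; with RefSeq transcripts only the log2 ratio in STR is -0.05.

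The sources used here do not say whether the libraries kept strand, and without it reads of genes on opposite strands cannot be told apart where exons overlap. In GENCODE M21 335 exonic bases of Dlx1as overlap exons of Dlx1. That is 20.6% of the 1630 exonic bases of GENCODE Dlx1as and 6.21% of the Dlx1 exons. The RefSeq Dlx1as transcript, which held most of the symbol, is longer (2793 bases), and its overlap with Dlx1 was not measured. Dlx6os1 and Dlx6 share 0 exonic bases, although their spans overlap. The deposited locus of Dlx1 and Dlx1as is joined with that of Metap1d, a mitochondrial methionine aminopeptidase (chromosome 2, 71291394 to 71375962, mm9), and that of Dlx6 with Dlx6os1 (chromosome 6, 6770188 to 6819533). Dlx2 (chromosome 2, 71381464 to 71384811) and Dlx5 (chromosome 6, 6827804 to 6832068) have loci of their own.

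The Dlx1as sum came mostly from its RefSeq transcript of 2793 bases, at 21.9 and 11.5 FPKM in SVZ, 27.1 in OB, 7.46 in DG and 2.37 in STR. That was 98.1% of the symbol in SVZ sample 1 and in OB, and 60.6% to 74.2% in SVZ sample 2, DG and STR. The 347-base catalogue form was at 0.419 and 4.24 FPKM in SVZ, 0.429 in OB and 0.209 in STR, and was listed at 0 in DG. The 1040-base form was at 3.27 FPKM in SVZ sample 2, 0.0958 in OB, 3.55 in DG and 0.615 in STR, and was listed at 0 in SVZ sample 1. Both begin in a first exon that ends at position 71375637 on mm9, with 231 exonic bases in common.

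A pair of further catalogue transcripts, of 700 and 639 bases, carry the symbol Metap1d in the deposited table but have the exon and intron lengths of GENCODE transcripts of Dlx1as. Together they were at 3.49 and 6.61 FPKM in SVZ, 2.89 in OB, 1.62 in DG and 1.72 in STR. Added to the Dlx1as sum, they gave 25.8 and 25.6 FPKM in SVZ, 30.6 in OB, 12.6 in DG and 4.92 in STR. The differences from STR were then 2.18 in SVZ and 2.41 in OB, against 2.37 and 2.77 for the symbol alone.

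Dlx6os1 was at 24.6 and 42.4 FPKM in SVZ, 33.9 in OB, 2.71 in DG and 18.3 in STR. It was low in DG, as were all members on chromosome 6, and STR stood under both SVZ samples. Its difference was 0.79 ± 0.51 in SVZ minus STR, 0.85 ± 0.58 in OB minus STR and -2.38 ± 0.58 in DG minus STR. Within the set or bridged the values were 1.17, 1.61 and -1.62.

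Its transcripts differed between the libraries. The 4503-base form was at 9.93 and 13.6 FPKM in SVZ, 20.0 in OB, 2.13 in DG and 9.80 in STR. The 4247-base form was at 11.8 and 13.1 FPKM in SVZ, 10.4 in OB, 0.583 in DG and 4.07 in STR. The 524-base form was at 2.89 and 15.6 FPKM in SVZ, 3.54 in OB and 4.45 in STR, and was listed at 0 in DG. The 4503-base form was the most abundant in OB, DG and STR, with 58.9%, 78.5% and 53.5% of the symbol. The 4247-base form led in SVZ sample 1 with 47.9%, and the 524-base form in SVZ sample 2 with 36.8%.

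The higher Dlx6os1 sum of SVZ sample 2 lay mostly in the short form: without transcripts under 600 bases the lncRNA was at 21.7 and 26.8 FPKM in SVZ, 30.3 in OB, 2.71 in DG and 13.9 in STR. For catalogue transcripts under 600 bases, the class of this form, the median log2 difference between SVZ sample 2 and SVZ sample 1 was 0.31, with 58.8% higher in SVZ sample 2, and for those of 2000 bases or more it was -0.08. For RefSeq transcripts of the same lengths it was 0.92 and -0.30. The part of this in the isoform shares was not tested.

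**Figure D5:**
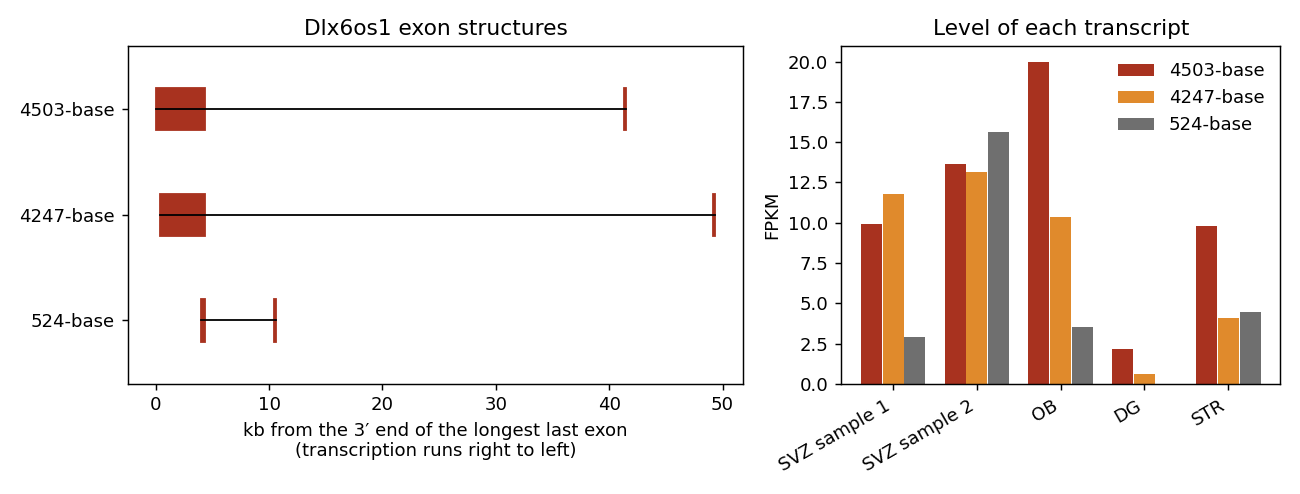
Left, exons (boxes) of the 3 Dlx6os1 transcripts by distance in kb from the 3′ end of the longest last exon; right, FPKM of each transcript in each library. The 3 forms join different first exons to the same second exon start, and the 524-base form is at 15.6 FPKM in SVZ sample 2 and at 0 in DG.

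Other transcripts of the loci were low. Dlx6as, a single exon of 1354 bases that has the length of GENCODE Dlx6os2, was at 0.238 to 0.535 FPKM in SVZ, OB and STR, and was listed at 0 in DG. Of the Dlx5 transcripts, that of 1406 bases held 89.8% to 100% of the symbol. The 1324-base transcript was at 2.95 FPKM in SVZ sample 1 and 4.32 in OB, and was listed at 0 in the other 3 libraries. Dlx3 and Dlx4, the remaining Dlx genes sought, were under 1 FPKM in every library.

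Coding genes within 500 kb of the members were counted by the same size. Of 10 such genes on chromosome 2 and 2 on chromosome 6, 1 was at least 2 log2 units higher in OB than in STR (Cybrd1, a ferric reductase, 2.05), 0 in SVZ or DG than in STR, and 0 were lower. Of all features 6.12% were higher in OB, 1.37% in SVZ and 3.70% in DG than in STR. Lower were 3.01%, 0.425% and 3.72%, so such counts do not set the neighbours apart. The other neighbours ran from -1.93 to 1.62 in OB minus STR. Metap1d, whose locus is merged with Dlx1, was at 22.7 and 12.6 FPKM in SVZ, 43.2 in OB, 21.8 in DG and 13.4 in STR.

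Among all features 1.37% were at least 2 log2 units higher in SVZ than in STR and 0.425% lower. Among the 7 factors tested that act before or beside Dlx in the ventral forebrain and the SVZ, 2 were higher and 0 lower. The higher ones included the homeobox gene Vax1 (9.27 and 2.13 FPKM in SVZ, 0.343 in STR). Gsx1, a ventral progenitor homeobox gene, was at 1.88 and 0.856 FPKM in SVZ, 0.130 in OB and 0.0742 in STR, and was listed at 0 in DG. In OB minus STR 2 of 5 tested were higher (Pax6, a factor of periglomerular neurons, at 3.73 and Vax1 at 2.13) and 1 lower. All features gave 6.12% higher and 3.01% lower.

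Of 19 interneuron transcription factors 6 were higher in OB than in STR by the same size (6.12% of all features) and 3 lower (3.01%). Their median was 0.68. Sp8, a zinc finger factor of bulb interneurons, had 45.4 FPKM in OB, against 0.0186 in STR (5.51). The lower ones included Six3, a homeobox gene of striatal neurons, with 0.210 FPKM in OB, against 31.0 in STR (-4.73), and Lhx6, of interneurons from the medial ganglionic eminence, with 0.276 FPKM in OB, against 7.23 in STR (-2.69). In SVZ minus STR 1 of 19 was higher (Sp8, 2.33) and 0 lower, against 1.37% and 0.425% of all features. In DG minus STR 4 of the 18 tested were higher and 4 lower, against 3.70% and 3.72%.

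The genes of GABA synthesis and transport did not follow Dlx1 and Dlx2. In SVZ minus STR and in OB minus STR 0 of 4 reached 2 log2 units either way, and 2 were lower in DG minus STR. Of all features 1.37% were higher and 0.425% lower in SVZ minus STR, and 6.12% and 3.01% in OB minus STR. In DG minus STR 3.72% of all features were lower. Gad1, a GABA-synthesising enzyme, was at 186 and 180 FPKM in SVZ, 602 in OB, 105 in DG and 202 in STR. Gad2, the second such enzyme, was at 132 and 171 FPKM in SVZ, 100 in OB, 22.3 in DG and 125 in STR.

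Among 12 migration genes 2 were higher in SVZ and 3 in OB than in STR, and 0 were lower in either. Of all features 1.37% and 6.12% were higher in these pairs, and 0.425% and 3.01% lower. The chemokine receptor Cxcr4 was at 10.4 and 5.41 FPKM in SVZ, 12.8 in OB, 3.05 in DG and 0.139 in STR. The neuroblast microtubule protein Dcx, which is also in the marker list of neuroblasts, was at 16.3 and 18.0 FPKM in SVZ, 37.5 in OB, 3.90 in DG and 2.54 in STR. Both had their lowest level in STR, as Dlx1 did. Erbb4, the neuregulin receptor, gave 0.33 in SVZ minus STR and 1.15 in OB minus STR.

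Interneuron subtype markers were divided in OB minus STR, with 4 of 9 higher and 3 lower, against 6.12% and 3.01% of all features. Calretinin (Calb2) was 8.37 higher and tyrosine hydroxylase (Th), the marker of dopaminergic periglomerular cells, 5.26 higher, while calbindin (Calb1) differed by -4.78. In SVZ minus STR 0 of the 8 tested were higher and 1 lower, parvalbumin (Pvalb, -2.07), with the peptide gene Cck at -1.90. All features gave 1.37% higher and 0.425% lower there.

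In a list of 12 genes drawn up as nuclear partners of Dlx proteins and of Dlx6os1, 1 was higher in SVZ than in STR (Sox11, a neuroblast factor, 2.67). In OB minus STR 1 of the 11 tested was higher (Mdk, 2.32). Mdk encodes a growth factor, so its place among nuclear partners is doubtful. Of all features 1.37% and 6.12% were higher in these pairs, and 1 gene does not set the list apart. Smarca4, the ATPase of the BAF chromatin remodelling complex, was at 57.2 and 29.8 FPKM in SVZ, 85.4 in OB, 64.5 in DG and 28.6 in STR.

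Markers of several other cell types moved with the regions. Neuroblast markers (7 of 8 in the table) summed to 521 and 371 FPKM in SVZ, 894 in OB, 279 in DG and 224 in STR. Tubb3 and Stmn2 made up most of each sum. Tubb3 was at 291 and 186 FPKM in SVZ, 649 in OB, 135 in DG and 147 in STR. Stmn2 was at 75.0 and 63.6 FPKM in SVZ, 103 in OB, 106 in DG and 63.8 in STR. Cd24a and Sox11 were higher in both SVZ samples than in OB, and the other genes of the list were higher in OB. Among these 7 genes 5 were at least 2 log2 units higher in SVZ minus STR (median 2.36) and 5 in OB minus STR (median 2.40), the pairs in which Dlx1 and Dlx2 were higher. Of all features 1.37% and 6.12% were higher in these pairs. GABAergic neuron markers, the same genes as those of GABA synthesis and transport, summed to 677 and 554 FPKM in SVZ, 1265 in OB, 264 in DG and 538 in STR. Transit-amplifying and cycling cell markers summed to 81.8 and 56.3 FPKM in SVZ, 8.14 in OB, 12.7 in DG and 4.28 in STR. Ependymal markers summed to 284 and 112 FPKM in SVZ, 13.1 in OB, 15.3 in DG and 5.34 in STR, and 5 of 5 were higher by 2 log2 units in SVZ minus STR and in SVZ minus DG. Of 4 microglial markers 0 reached that size in any pair. The part of these cells in the Dlx differences was not tested.

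Likeness to the members was measured as the root mean square (RMS) difference between profiles of log2(FPKM + 1), each centred on its mean over the 5 libraries, among 12278 genes and loci at 5 FPKM or more in a library. Leaving out these genes themselves, the nearest 5 to the mean profile of the 4 coding genes included the unnamed catalogue locus XLOC_015090 (0.26), 1700027L20Rik (0.28) and the potassium channel subunit Dpp10 (0.41). From this mean Dlx5 itself was 0.41 away, Dlx2 0.75, Dlx1 0.82 and Dlx6 1.17, so it is not a pattern common to the 4. XLOC_015090 was at 6.82 and 4.35 FPKM in SVZ, 10.5 in OB and 1.01 in STR, and was listed at 0 in DG. With 5 libraries many genes are alike, so these values only describe how levels differed among these libraries.

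Dlx1 and Dlx2 were each other's nearest profile (0.45), followed for Dlx1 by Sp8 (0.64) and the neuropeptide gene Cartpt (0.66). The nearest 3 of Dlx2 also included Aebp1 (0.76). Nearest to Dlx5 were Cpne8 (0.09), Dpp10 (0.15) and XLOC_015090 (0.23). Nearest to Dlx6 were Pcp4l1 (0.30), Tmem91 (0.31) and the substance P receptor Tacr1 (0.39). The member nearest to Dlx6 was Dlx6os1 (0.58), and its distance was 0.90 from Dlx5 and 1.97 from Dlx1. The nearest 3 of Dlx1as included Tox3 (0.25) and Mex3a (0.27), and nearest to Dlx6os1 2810405F15Rik (0.23), the phosphodiesterase Pde1c (0.25) and Hs3st5 (0.31).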

How the data were processed

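Poly(A) RNA of 5 libraries (SVZ 2, OB 1, DG 1, STR 1) was used. The authors deposited FPKM values per transcript, and the exon structures of their lncRNA catalogue, on mm9; CASAVA, TopHat 1.2.0 and Cufflinks 1.0.0 are named in the submitters' processing notes, with no role given. FPKM values hold no counts, so depth is unknown. The design text names both paired-end and single reads, with no assignment to samples.

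Transcripts of a symbol were summed. limma 3.58.1 (R 4.3.3; empirical Bayes, trend) took log2(FPKM + 1) of all 27671 features in 4 region groups. P-values were adjusted by Benjamini-Hochberg over features that reached 1 FPKM in any library of the 2 regions compared, the features also used for counts by size (2 log2 units). On simulated data, with the same spread in every library, the fit returned the mean size of the differences put in. That check covered sizes only, not the p-values or an unequal spread between regions. P-values measure only the spread of the 2 SVZ samples. The members, the gene lists and the naming rule were chosen with earlier results of these data known. The rule took all members with their transcripts, per list the first 2 genes detected and the 2 with the largest difference in OB and in SVZ minus STR, the nearest 5 profiles to the coding mean and 3 to each member, and neighbours within 500 kb. Some genes that the rule takes are not reported here. The marker gene Nrep was not found under that symbol. Alternatives were another pseudocount, median ratio scaling, the highest single transcript, RefSeq transcripts only, each SVZ sample left out, values within a library set, and no filter. A further alternative, which was not planned, left out transcripts under 600 bases. Sequences came from RefSeq promoter windows (GRCm38.p6) and GENCODE M21 transcripts, matched to the catalogue by exon and intron lengths. No coordinate was converted.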

Additional observations from a re-analysis of the deposited data

How the results depend on the processing

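The counts of members by size were within 1.5 times of those reported under 53 of 54 alternatives. The exception was OB minus SVZ, where leaving out SVZ replicate 1 gave 2 members at least 2 log2 units higher (Dlx1 and Dlx2) and leaving out SVZ replicate 2 gave 0, against 0 with both. In OB minus STR the count was 3 after median ratio scaling and when bridged, since Dlx5 was under the threshold. Dlx6os1 has no RefSeq row, so the counts from RefSeq transcripts only are over 5 members. Many of the 54 alternatives could not change a count, so their total does not measure how stable the counts are. Leaving out an SVZ sample does not touch pairs without SVZ, and all members passed the filter. Values within a set equal the reported ones in OB minus DG. In pairs of SVZ with another region they equal those with an SVZ sample left out. Of the 6 counts from limma, 0 with the filter, those with no filter on low values were 131 in SVZ minus STR, 1099 in OB minus STR, 282 in DG minus STR, 990 in OB minus SVZ, 0 in SVZ minus DG and 1039 in OB minus DG, and none of the members was among them. A fit to the filtered genes of each pair, chosen after seeing the data, called 475 in OB minus DG, among them Dlx1 (limma adjusted p = 0.0356) and Dlx6 (0.0403), and 0 in the other 5 pairs. The cause was not tested. Without a trend, with a pseudocount of 0.1 FPKM and after median ratio scaling limma called 0 in every pair. Median ratio scaling moved the median of all features by -0.25 in SVZ minus STR, -0.49 in OB minus STR, -0.26 in DG minus STR, -0.24 in OB minus SVZ and -0.25 in OB minus DG. No member at 2 log2 units or more changed sign under any alternative; smaller differences changed sign for Dlx2 in DG minus STR, Dlx6 in OB minus STR and Dlx6os1 in OB minus SVZ (0.07, with a range of -0.32 to 0.52). No paired analysis was possible because only the SVZ had more than 1 sample.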
